A study of Mus musculus with 18 samples.

Results

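The hindbrains of Fmr1CRE and wild-type (WT) mice were compared at the level of single transcripts, by the amount of each transcript and by its share of the reads of its gene. The comparison took 6 of the 18 libraries of the series, 3 from Fmr1CRE and 3 from WT hindbrain, and the gene counts of the same 6 libraries were set beside the transcripts. Fmr1CRE mice carried a knocked-in single-base change in a conserved cis-regulatory element (CRE) assigned to Fmr1. The change was made with CRISPR/Cas9 in mouse zygotes, and the lines were kept on a C57BL/6 background. Which of the independent lines gave these mice was not stated, and the WT mice had no edit. Every mouse was taken at postnatal day 25 (P25), and the 3 Fmr1CRE and 3 WT mice were described as coming from the same litter. Hindbrain, midbrain and forebrain were dissected from each mouse, so the 3 regions share their animals. Poly(A) RNA was primed at random and sequenced as single-end reads of 50 bases.

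The libraries were chosen by the mouse and region named in each transcript table, since 0 of the 6 sample records that hold these tables names that mouse and region. In 6 of 6 libraries the table lay closest to the gene-count column of its own name, at most 6.48% apart in summed gene counts, whereas the next column was at least 13.2% away. The estimated reads on transcripts were 27105196, 26895032 and 22455523 in Fmr1CRE 1, 2 and 3, and 25117400, 27712642 and 24982404 in WT 1, 2 and 3. Values below are given in this order of libraries, Fmr1CRE before WT. The summed CPM (counts scaled to a common library size) of 12 hindbrain markers ran from 434.5 to 936.7 in the Fmr1CRE libraries and from 479.4 to 664.1 in WT, against 41.98 to 54.3 and 50.8 to 54.3 for 10 forebrain markers.

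FMRP, the protein of Fmr1, is an RNA-binding protein that associates with translating ribosomes and represses the translation of many neuronal mRNAs, and its loss causes fragile X syndrome. Fxr1 and Fxr2 encode its closest relatives. Most brain genes are copied into several transcripts that differ by the start site, by included or skipped exons, by the choice of a splice site or by the last exon, and a gene can shift between them with no change in its total. Reads of 50 bases that fall in sequence shared by several transcripts have to be divided among them by a statistical model, so a transcript is measured best where it has windows of 50 bases that occur in no other transcript of its gene (own windows).

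The guide RNA that directed Cas9 to the regulatory element is shown with its protospacer-adjacent motif in capitals, because it marks the base change that separates the groups. The repair template of 180 bases differed from these letters by 1 base.
Fmr1 guide: accttgtgtctatgactattTGG
A pair of segments separated the main coding transcripts of Fmr1 (mm10, chromosome X, 68678541 to 68717963, plus strand). The first is a 63-base exon at chrX:68705861-68705923, shown in capitals between the flanking exons.
63-base exon, in Fmr1-201: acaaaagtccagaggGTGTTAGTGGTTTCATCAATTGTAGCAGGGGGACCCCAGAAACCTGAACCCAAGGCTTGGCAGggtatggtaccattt
The second is a 75-base coding segment at chrX:68712231-68712305, which the transcripts that use a later acceptor site lack.
75-base segment, in Fmr1-206: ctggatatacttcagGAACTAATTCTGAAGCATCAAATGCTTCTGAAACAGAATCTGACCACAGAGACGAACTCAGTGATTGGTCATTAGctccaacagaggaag
Fmr1-205 also differed from Fmr1-206 by 6 coding bases at the start of an exon, given in capitals.
Fmr1-206: cacgaaacttagtagGCAAAGtaataggaa
Fmr1-205: cacgaaacttagtagtaataggaaaaaatg

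No difference in Fmr1, the targeted gene, was detected between the genotypes in its total, its transcripts or their shares. The deposited gene counts of Fmr1 were 1786, 1834 and 1531 in Fmr1CRE and 1445, 1548 and 1764 in WT. As CPM, they were 67.4 ± 1.32 (SD, n = 3) in Fmr1CRE and 61.3 ± 8.08 (SD, n = 3) in WT, and the groups overlapped because WT 3 had the highest value of the 6 libraries. The log2 fold change, Fmr1CRE over WT here and throughout, was 0.15 with an SE of 0.13 and a 95% confidence interval from -0.16 to 0.45 (edgeR quasi-likelihood test, adjusted p = 0.911). Of the 13 annotated Fmr1 transcripts, 6 passed the filter on low counts and 0 of the 6 had an unadjusted p under 0.05.

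Fmr1-206, which lacks the 63-base exon and holds the 75-base segment, took most of the reads of the gene. It had 1177, 1046 and 873.9 reads in Fmr1CRE and 983.5, 922.9 and 912.4 in WT. Its share of the gene was 65.2%, 58.7% and 60.2% in Fmr1CRE and 67.7%, 58.5% and 53.8% in WT, so that the 3 WT mice spanned the whole range of the Fmr1CRE mice. The difference in its level was 0.14 on the log2 scale (SE 0.10, 95% interval -0.12 to 0.39, adjusted p = 0.999). Fmr1-202, with the exon and without the segment, had shares of 17.9%, 16.9% and 24.3% in Fmr1CRE and 17.4%, 25.6% and 29.1% in WT, and its level differed by -0.21 (SE 0.28, 95% interval -0.90 to 0.47). In the exact two-sided permutation test, where 3 against 3 libraries cannot give a p below 0.1, the shares of Fmr1-206 and Fmr1-202 had p = 0.8 and p = 0.3.

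The estimates of the smaller Fmr1 transcripts went to 0 in single libraries. Fmr1-205 held 9.28% and 7.80% of the gene in Fmr1CRE 1 and 2 and 0% in Fmr1CRE 3, whereas the WT shares were 9.19%, 9.72% and 9.27%. Fmr1-201, which holds both the exon and the segment, was listed at 0 in Fmr1CRE 1 and in the 3 WT libraries, and at 8.13% and 7.44% in Fmr1CRE 2 and 3. Fmr1-201 did not pass the filter. The 3 retained-intron transcripts that were tested, Fmr1-208, Fmr1-212 and Fmr1-213, each held between 0.879% and 2.89% of the gene. Of these, Fmr1-208 stood at 2.80%, 2.89% and 2.80% in Fmr1CRE and 2.13%, 2.89% and 2.83% in WT. Fmr1-206 and Fmr1-202 had 0 own windows and Fmr1-205 had 47, whereas the retained-intron forms had between 378 and 748.

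Summed over transcripts, the use of both Fmr1 segments overlapped between the genotypes. Among the 6 transcripts that span the site of the 63-base exon, those that hold it took 19.2%, 26.6% and 34.5% of the reads in Fmr1CRE and 18.5%, 27.3% and 31.5% in WT (exact permutation p = 0.8). The 75-base segment was held by 79.95%, 79.4% and 73.5% in Fmr1CRE and 81.5%, 72.7% and 68.5% in WT (exact permutation p = 0.6). In both genotypes the spread between 3 mice was larger than the difference of the means, which was 1.03 percentage points for the exon and 3.42 for the segment. The test of transcript usage, which asks whether the transcripts of a gene move apart from each other, gave an unadjusted p of 0.929 for Fmr1 with edgeR and 0.251 with limma.

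**Figure D1:**
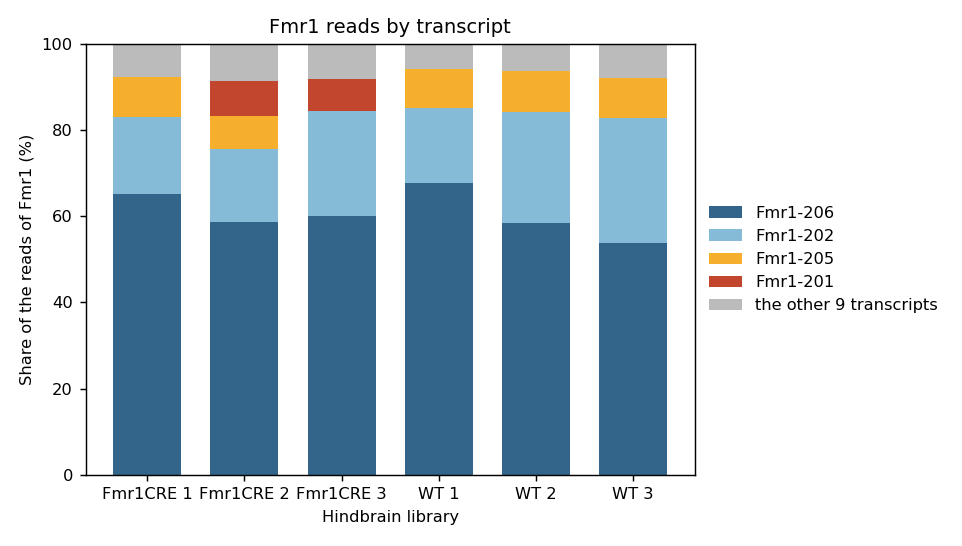
Stacked bars of the share of the estimated Fmr1 reads on each Fmr1 transcript (y axis, percent of the reads of the gene), with 1 bar per hindbrain library (x axis) and the transcripts not named in the legend summed in grey. The Fmr1-206 block lies between 53.8% and 67.7% in both genotypes, Fmr1-205 is missing in Fmr1CRE 3, and Fmr1-201 appears in 2 of 6 libraries.

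Fxr1 and Fxr2 also showed no difference beyond the spread between mice. At the gene level the log2 fold change was 0.01 (SE 0.11) for Fxr1 and 0.03 (SE 0.11) for Fxr2. Fxr2-201, the main coding transcript of Fxr2, had 2321, 2569 and 1784 reads in Fmr1CRE and 2361, 2545 and 1887 in WT, a difference of -0.02 (SE 0.11). The most abundant Fxr1 transcript, Fxr1-208, had 1005, 1039 and 765.3 reads in Fmr1CRE and 1072, 1109 and 873.4 in WT, a difference of -0.11 (SE 0.10). Fxr1-202 varied far more between mice of 1 genotype, with 544.6, 221.5 and 529.0 reads in Fmr1CRE and 178.7, 493.9 and 697.3 in WT, and its difference of -0.05 had an SE of 0.59. Of the 5 Fxr1 and 6 Fxr2 transcripts tested, 0 had an unadjusted p under 0.05 in the edgeR fit.

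Across all transcripts, 52609 passed the filter and 0 were called at an adjusted p of 0.05 (0% of those tested, edgeR). An unadjusted p under 0.05 was found for 2275 transcripts, 4.32% of those tested, of which 1227 were higher (2.33%) and 1048 lower (1.99%) in Fmr1CRE. Without WT 3 the number of unadjusted p-values under 0.05 was 5122 and still 0 transcripts were called. The smallest adjusted p was 0.2518. DESeq2 called 530 of 52415 transcripts (1.01%), 346 of them higher and 184 lower in Fmr1CRE. Of the 530 transcripts, 199 were at 0 reads in the 3 libraries of 1 genotype. On simulated tables with no change, where shared reads were not divided, this DESeq2 test also made many calls. Its number is not read as a number of changed transcripts.

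The transcripts of smallest p were present in 1 genotype and listed at 0 in the other. Ppip5k1-203, a coding transcript of a kinase of inositol pyrophosphates, had 426.6, 526.0 and 549.7 reads in Fmr1CRE and 0 in each WT library (unadjusted p = 1.32e-05, adjusted p = 0.252). Unk-201, from the gene of a zinc-finger RNA-binding protein of neurons, had 386.2, 273.4 and 241.2 reads in Fmr1CRE and 0 in WT. Pds5b-208, from a cohesin regulator, had 120.3, 177.3 and 142.2 reads against 0. The others of this kind were Babam2-205, with 80.5 to 115.3 reads in Fmr1CRE, and Diablo-206, with 75.3 to 91.4. Diablo encodes a mitochondrial protein that promotes apoptosis, and Diablo-206 is annotated as a target of nonsense-mediated decay.

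In the other direction, 5 transcripts had reads in WT and 0 in each Fmr1CRE library. Arpp21-223 had 115.1, 134.6 and 89.2 reads in WT, Rps6ka6-203 had 139.5, 107.0 and 149.4, and Tle3-201 had 131.7, 109.0 and 85.7. Xlr3a-202 had 90.1, 87.8 and 82.7 reads in WT, and Jmjd6-207 had 67.3, 94.2 and 73.2. Xlr3a is an X-linked gene of unclear function in brain with near-identical neighbours, among them Xlr3b, so reads may be split between them. None of these 10 transcripts passed the test after adjustment, and no fold change is given against a group listed at 0.

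The genes of these 10 transcripts were read in both genotypes. Their gene-level log2 fold changes ran from -0.12 to 0.76, with the highest value in Xlr3a (SE 0.25, adjusted p = 0.879). Pds5b-208 and Pds5b-201 part at the 6 coding bases in capitals, and Pds5b-208 also lacks 825 bases of the last exon.
Pds5b-208: gaagaccctgatcttGTAAGGtctgagttg
Pds5b-201: gaagaccctgatctttctgagttggagaag
Diablo-206 instead continues past a donor site into the intron, and Diablo-203 joins the next exon.
Diablo-206: ggagccagagttgagGTGAGTGAACCTGTT
Diablo-203: ggagccagagttgagatgacttcaaaacag
Of the 10 transcripts, 8 had no window of 50 bases of their own. The exceptions were Babam2-205 with 48 and Jmjd6-207 with 45 own windows.

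**Figure D2:**
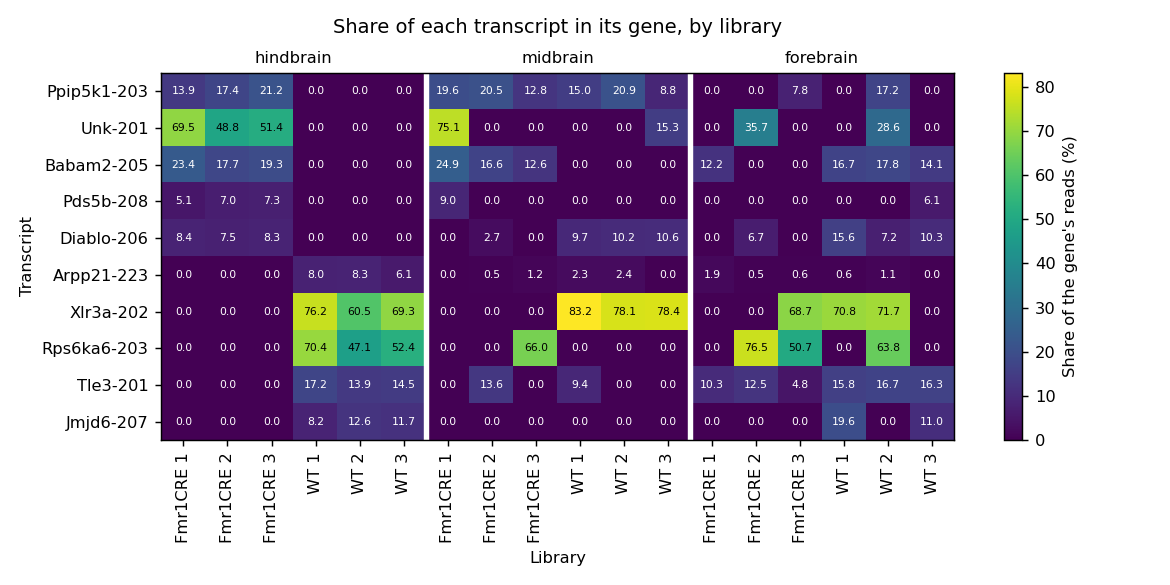
Share of the reads of its gene (color and printed value, percent) for the 5 transcripts of smallest p in each direction (y axis) in each library of the 3 regions (x axis). The hindbrain block is at 0 in 1 genotype in each line, whereas in midbrain only Babam2-205 and Xlr3a-202 keep the hindbrain order without overlap and Diablo-206 has the opposite order.

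On/off estimates were common among mice of the same genotype too. In all, 68 tested transcripts had 0 reads in the 3 WT libraries and at least 20 in each Fmr1CRE library, and 38 had the reverse. By a looser rule, 4230 transcripts had 0 reads in any 1 Fmr1CRE library beside at least 20 in any other, and 4466 did so within WT. The rules differ, so these counts do not show how many of the 68 and 38 would arise without a genotype difference. Together 6744 transcripts, 12.82% of those tested, went from 0 to at least 20 reads within a genotype. Such estimates were more frequent in transcripts with no sequence of their own. Among the 47923 tested transcripts of genes with several transcripts, 5179 (10.81%) had no own window. Of these, 30.39% had 0 reads in 1 and at least 20 in another hindbrain library, compared with 13.97% of the transcripts with an own window.

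Transcript usage was tested in 10802 genes, and the number of genes called depended on the test. With edgeR, 120 genes (1.11%) had transcripts that moved apart at an adjusted p of 0.05. Leaving out 1 library, which leaves fewer libraries to estimate the spread, gave 191 to 245 genes for 5 of the 6 libraries and 667 without WT 3. With limma on the same transcripts, 6 genes were called (0.0555%). Unadjusted, 997 genes (9.23%) had a limma usage p under 0.05, beside 629 (5.82%) with edgeR. With edgeR on the transcripts that had at least 10 reads in every library, 9 of 8570 genes were called (0.105%). Of the 120 genes, 112 (93.33%) had a tested transcript at 0 reads in some library, as against 47.4% of all genes tested. On simulated tables with no change the edgeR usage test made many calls and limma few or none. Shared reads were not divided among transcripts there, so those tables do not show how either test behaves on these estimates. The 120 genes are not read as 120 genes with changed usage. The limma calls and those with 10 reads in every library together held 11 genes, which are described below and were singled out after their values were seen.

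The deposited gene counts of the 120 genes were compared as well. Their absolute gene-level log2 fold change had a median of 0.17, beside 0.16 over all genes tested, and 19 of the 120 (15.8%) had an unadjusted gene-level p under 0.05, beside 5.09% of all genes. The largest absolute value was 0.84. The deposited gene counts came close to counts rebuilt from the same transcript estimates and their lengths, as given below. A shift between transcripts can therefore move them, and the 15.8% is not separate evidence of a changed total.

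Mapk1ip1l and Zfp513 were called in all 3 of these tests. Mapk1ip1l, a gene of poorly known role on chromosome 14, moved between a pair of coding transcripts with the same coding length. Mapk1ip1l-202 made up 69.4%, 74.3% and 67.7% of the gene in Fmr1CRE and 27.9%, 40.2% and 43.1% in WT. Mapk1ip1l-201 made up 26.9%, 23.4% and 30.2% in Fmr1CRE and 69.5%, 58.0% and 52.4% in WT. The groups did not overlap for either transcript, and the adjusted p was 0.0172 with edgeR, 0.0105 with limma and 0.0224 with 10 reads in every library. In midbrain the Mapk1ip1l-202 shares of the same mice overlapped, at 59.0%, 60.6% and 78.2% in Fmr1CRE and 60.7%, 64.1% and 65.8% in WT.

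Zfp513, which encodes a zinc-finger transcription factor needed in the retina, shifted from Zfp513-202 to Zfp513-201. The share of Zfp513-201 was 36.5%, 29.9% and 50.0% in Fmr1CRE and 4.65%, 11.5% and 16.6% in WT, and each Fmr1CRE value lay above each WT value. The adjusted p was 0.0150 with edgeR, 0.0477 with limma and 0.0393 with 10 reads in every library. In midbrain the shares were 17.2%, 25.3% and 12.4% in Fmr1CRE and 23.5%, 15.8% and 25.1% in WT, which overlapped. The edgeR call of Mapk1ip1l was lost without Fmr1CRE 2, WT 1 or WT 2 (adjusted p = 0.109 at most), and that of Zfp513 without Fmr1CRE 1, WT 1 or WT 2 (0.265 at most).

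Cep131 and Gfap had the same order of genotypes in midbrain. Cep131 encodes a centriolar-satellite and cilium protein, and it lies on chromosome 11 (120064430 to 120086827, minus strand). Its 2 main coding transcripts, Cep131-202 and Cep131-201, differ at 1 splice junction by 3 bases in length, with the letters that differ in capitals.
Cep131-202: caggcagccattcagGTACTacaacagaaa
Cep131-201: caggcagccattcagGAacaacagaaacga
Cep131-201 held 55.2%, 53.2% and 53.9% of the gene in Fmr1CRE hindbrain and 0%, 10.5% and 5.0% in WT. Cep131-202 was the reverse, with 11.3%, 6.2% and 15.1% in Fmr1CRE and 60.2%, 49.9% and 75.8% in WT. The total of the gene differed by -0.04 (SE 0.32). The usage of the gene was called with limma (adjusted p = 0.0143) and with 10 reads in every library (0.0393), and not with edgeR (0.0967). The test with 10 reads in every library left out Cep131-201, which had 0 reads in WT 1, so it did not compare this pair. In midbrain of the same mice, Cep131-201 held 32.8%, 49.2% and 37.2% in Fmr1CRE and 3.4%, 7.3% and 5.7% in WT (limma adjusted p = 2.03e-07).

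Gfap encodes the glial fibrillary acidic protein, the intermediate filament of astrocytes. Gfap-201 ends with the 2 usual last exons, and Gfap-202 ends in an alternative last exon of 1355 bases (chr11:102890166-102891520, minus strand), which changes the tail of the protein. The junctions are shown with the letters after the shared exon in capitals.
Gfap-201: acctccagatccgagAAACCAGCCTGGACA
Gfap-202: acctccagatccgagGGGGCAAAAGCACCA
Gfap-202 had 563.0, 631.3 and 400.8 reads in Fmr1CRE and 71.9, 85.3 and 148.5 in WT. Its share was 2.84% ± 0.161 (SD, n = 3) in Fmr1CRE and 0.524% ± 0.124 (SD, n = 3) in WT, with no overlap. Gfap-202 has 1279 own windows, 53.2% of all its windows, and more than any of the other transcripts that lead the 11 genes.

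The level of Gfap-202 differed by 2.37 on the log2 scale (SE 0.34, unadjusted p = 4.64e-04, adjusted p = 0.334), while the gene total differed by 0.09 (SE 0.20). The usage of Gfap passed with 10 reads in every library (adjusted p = 0.0224) and did not pass with edgeR (0.344) or limma (0.294). In midbrain the Gfap-202 share was 3.0%, 3.2% and 2.9% in Fmr1CRE and 0.6%, 0.4% and 0.6% in WT. The midbrain usage test of Gfap gave an adjusted p of 1.09e-04 with limma and 4.71e-05 with 10 reads in every library. It did not pass with edgeR (0.394). Of the 8 astrocyte genes, 0 were called at the gene level, and their summed CPM ran from 5276 to 5726 in Fmr1CRE and from 5341 to 5654 in WT.

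Xlr3b followed the same order in midbrain. Xlr3b lies on chromosome X (73192207 to 73202930), and its transcripts Xlr3b-203, a retained-intron form, and Xlr3b-201, the coding form, had 0 own windows each. Xlr3b-203 held 79.9%, 68.7% and 63.2% in Fmr1CRE hindbrain and 35.5%, 38.5% and 37.0% in WT. In midbrain it held 60.2%, 55.8% and 41.4% against 35.9%, 32.5% and 38.6%. The usage call was made with edgeR (adjusted p = 0.0203) and with 10 reads in every library (0.0393), not with limma (0.0969). The neighbouring gene Xlr3a has the on/off transcript Xlr3a-202 named above, at 0% in Fmr1CRE and 61% to 76% in WT hindbrain, and likewise at 0% and 78% to 83% in midbrain. The junction of Xlr3a-202, shown with the retained letters in capitals, runs on where Xlr3a-201 is spliced.
Xlr3a-202: acagccagaacccagGTGCAGTCGCAGCAG
Xlr3a-201: acagccagaacccagctaacagagaagtcc

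In forebrain, the third pair of libraries went against its names for these transcripts. The Gfap-202 share was 3.4% and 3.8% in Fmr1CRE 1 and 2 but 0.6% in the library named Fmr1CRE 3, and it was 0.6% and 0.4% in WT 1 and 2 but 2.5% in the library named WT 3. The Cep131-201 share was 40.2%, 45.2% and 19.7% against 11.9%, 4.0% and 57.5%. The same order was found for Xlr3b-203, with 82.5%, 67.3% and 25.5% in Fmr1CRE and 26.3%, 20.8% and 63.5% in WT, and for Xlr3a-202, with 0%, 0% and 69% against 71%, 72% and 0%. In hindbrain and midbrain the library of each mouse 3 sided with its own genotype for these 4 transcripts. Whether the 2 forebrain libraries carry each other's name was not tested, and no forebrain library entered the hindbrain fits other than the alternative fit of all 18 libraries.

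**Figure D3:**
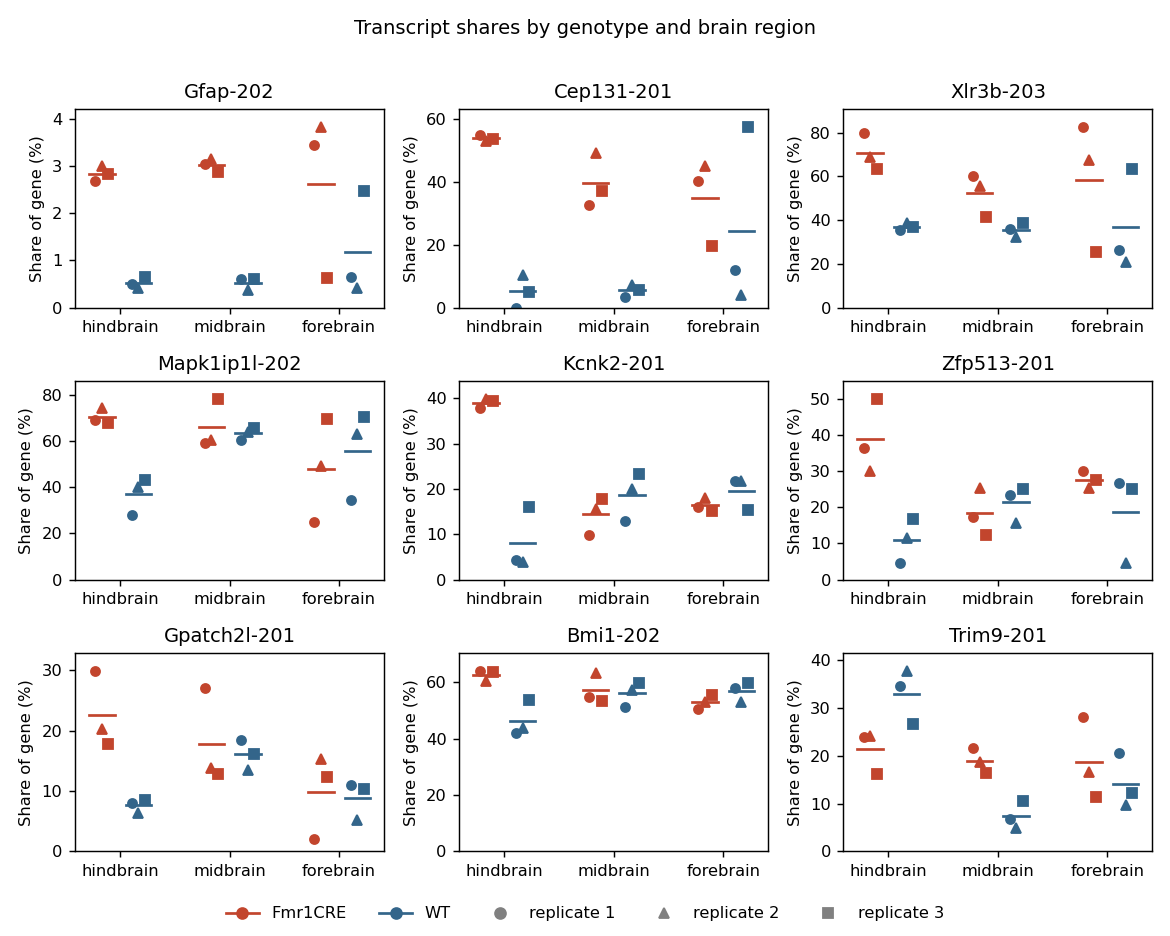
Share of the reads of its gene (y axis, percent) on the leading transcript of 9 of the 11 genes called with limma or with 10 reads in every library, by region (x axis). Each symbol is 1 library, with the shape for the replicate, and each line a group mean. In hindbrain Gfap-202 lies at 2.7% to 3.0% in Fmr1CRE and 0.4% to 0.7% in WT, midbrain has the same order, and in forebrain the squares of replicate 3 have the opposite order to the other two replicates.

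Kcnk2, Trim9 and Diaph3 were called with limma and did not show the same shift in midbrain. Kcnk2 encodes the potassium channel TREK-1, which sets the resting potential of neurons. Kcnk2-201 includes an exon that Kcnk2-203, annotated as a target of nonsense-mediated decay, skips.
Kcnk2-201: gacgaactcatccagCAAATAGTGGCAGCA
Kcnk2-203: gacgaactcatccaggatttggaaacatct
Kcnk2-201 held 37.9%, 39.8% and 39.5% of the gene in Fmr1CRE and 4.4%, 3.9% and 16.1% in WT. The usage of Kcnk2 was called with limma (adjusted p = 0.0105) and with 10 reads in every library (0.0393), and not with edgeR (0.411). In midbrain Kcnk2-201 held 9.9%, 15.6% and 17.8% against 12.9%, 19.9% and 23.3%, which overlapped.

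Trim9 encodes a ubiquitin ligase of neurons that acts in axon guidance. Trim9-202 has the exons of 33 and 189 bases that Trim9-201 lacks. Trim9-201 held 24.0%, 24.0% and 16.2% in Fmr1CRE hindbrain and 34.6%, 37.6% and 26.5% in WT, so each Fmr1CRE value lay below each WT value. Trim9 had the smallest edgeR p of any gene (adjusted p = 1.33e-08) and an adjusted limma p of 0.0091, and it was not called with 10 reads in every library (0.0729) or with transcripts of at least 5% of the gene (0.112). In midbrain the order was the opposite, with 21.7%, 18.6% and 16.4% in Fmr1CRE and 6.8%, 4.9% and 10.5% in WT (limma adjusted p = 0.0176).

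Diaph3, a formin that assembles actin filaments, was a small gene by reads, with 78 to 105 in a library. Diaph3-201 took 55.4%, 63.0% and 52.1% in Fmr1CRE and 0% in WT, and Diaph3-202 took 0% in Fmr1CRE and 59.1%, 61.4% and 64.9% in WT. These transcripts have equal lengths and differ by 2 bases on either side of 1 junction, given in capitals.
Diaph3-202: gtgataaagatgtccAGcttcgttatcagt
Diaph3-201: gtgataaagatgtccATcttcgttatcagt
In midbrain Diaph3-201 was at 0%, 0% and 56.3% in Fmr1CRE and 69.6%, 60.2% and 45.1% in WT, so the form listed at 0 changed from mouse to mouse.

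Bmi1, Gpatch2l and Son complete the 11 genes. Bmi1 encodes a Polycomb protein that keeps neural stem cells dividing. Bmi1-202 held 63.9%, 60.3% and 63.5% in Fmr1CRE and 41.9%, 43.5% and 53.7% in WT (adjusted p = 0.0203 with edgeR, 0.0393 with 10 reads in every library and 0.0880 with limma). The Bmi1-202 and Bmi1-201 forms have the same 972 coding bases. Gpatch2l-201 held 29.8%, 20.2% and 17.8% in Fmr1CRE and 8.0%, 6.3% and 8.5% in WT (0.0341, 0.0393 and 0.125 in the same order). Son, which encodes a splicing cofactor of nuclear speckles, was called only with 10 reads in every library (0.0393, and 1 with edgeR and with limma). That test left out the transcript Son-202, which had 0 reads in WT 1 and WT 2 and 2035.5 in WT 3. The Son-205 share overlapped between genotypes, with 3.9%, 5.1% and 7.7% in Fmr1CRE and 14.6%, 14.2% and 7.1% in WT.

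The other genes of smallest edgeR p were not called with limma. Aspscr1, Pds5b and Diablo had edgeR adjusted p-values of 2.53e-08, 2.53e-08 and 6.97e-08 and limma adjusted p-values of 0.377, 0.286 and 0.352. Diablo-203, the main coding form, held 66.8%, 67.1% and 61.9% in Fmr1CRE and 76.2%, 79.7% and 77.4% in WT. Its midbrain shares were ordered the other way, with 70.7%, 67.1% and 75.0% against 62.7%, 60.4% and 59.1%. In Pds5b, Pds5b-202 held 37.4%, 33.7% and 35.6% in Fmr1CRE and 25.3%, 26.9% and 25.3% in WT. In Fbxw2, Cit, Rap1gap, Actl6a and Art3 the limma adjusted p ran from 0.278 to 0.819. Cit, which encodes a kinase of cytokinesis, had its transcript Cit-216 at 5.6%, 5.6% and 8.4% in Fmr1CRE and 0% in WT, yet in midbrain Cit-216 was at 4.5%, 7.5% and 8.1% against 9.8%, 11.3% and 6.4%.

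The usage test was also run in the other regions of these mice, an alternative chosen after seeing the data. In midbrain, edgeR called 94 of 10612 genes and limma 7, and 4 edgeR genes were shared with hindbrain, 3.33% of the 120 and 4.26% of the 94. Of the 11 genes called in hindbrain with limma or with 10 reads in every library, 3 were so called in midbrain, namely Gfap, Cep131 and Trim9. In forebrain limma called 0 genes, edgeR 85 of 10575, and 1 gene was shared, 0.833% of the 120 and 1.18% of the 85. The forebrain counts rest on groups that include the 2 libraries whose values went against their names above. The shares of 5308 of 44618 tested transcripts (11.9%) did not overlap between the genotypes in hindbrain. Of these, 318 (5.99%) did not overlap in the same direction in midbrain and 220 (4.14%) in the opposite direction. In forebrain, with the same 2 libraries in their named groups, 184 (3.47%) did so in the same direction and 369 (6.95%) in the opposite direction. With 3 against 3 libraries, untied values separate completely in a fraction of 0.1 of all label splits, counting both directions. The midbrain and forebrain fractions over all 44618 transcripts are not given here. These counts are therefore not read as genotype differences shared or reversed between regions.

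The lists of genes known for their isoforms are read against the usage test over all genes, where 629 of 10802 (5.82%) had an unadjusted edgeR p under 0.05. Of 33 synaptic genes, 0 were called with limma, and 7 had an unadjusted edgeR usage p under 0.05. Shank3, a scaffold of excitatory synapses, and Nlgn2, an adhesion protein of inhibitory synapses, had edgeR adjusted p-values of 0.313 and 0.414. Nlgn2-202 had shares of 53.9%, 47.0% and 56.2% in Fmr1CRE and 31.1%, 38.7% and 46.8% in WT, and its level differed by 0.76 (SE 0.12, unadjusted p = 6.07e-04, adjusted p = 0.370). Shank3-208 had 242.1, 165.6 and 134.2 reads in Fmr1CRE and 68.6, 37.6 and 54.8 in WT, a difference of 1.72 (SE 0.34, adjusted p = 0.584) on the log2 scale.

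Of the 18 myelin and cytoskeleton genes, 0 were called in the edgeR usage test, and the 3 of smallest p were Gfap, Mobp and Cnp, with adjusted p-values of 0.344, 0.562 and 1. Unadjusted, 2 of the 18 genes had a usage p under 0.05, and limma called 0. Cnp-201 held 63.7%, 62.4% and 63.7% in Fmr1CRE and 68.6%, 67.8% and 63.6% in WT. Among 13 SR proteins, which bind exonic enhancers and recruit the spliceosome, 0 of the 12 tested were called, with Srsf1 (0.404), Srsf6 and Srsf2 (both 1) at the smallest p, and 1 had an unadjusted p under 0.05. Srsf1-205 held 38.8%, 38.6% and 43.7% in Fmr1CRE and 43.9%, 44.2% and 44.1% in WT. Among 38 splicing regulators, 0 of 37 tested genes were called with edgeR or limma and 2 had an unadjusted p under 0.05, with Clk2 (0.530), Elavl1 (0.683) and Hnrnpd (1) first. Elavl1-204 held 22.6%, 19.6% and 20.9% in Fmr1CRE and 8.5%, 8.9% and 18.6% in WT. The gene lists were chosen with earlier results of these data known.

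At the transcript level the lists again held 0 adjusted calls with edgeR, and their unadjusted counts are read against 4.32%. The synaptic list had 24 of 234 tested transcripts higher and 3 lower at an unadjusted p under 0.05 (11.54%), with a median log2 fold change of 0.24 over the list beside 0.00 over all transcripts. The splicing regulators had 11 higher and 3 lower of 287, the SR proteins 4 and 0 of 80, and the myelin and cytoskeleton genes 3 and 2 of 135. For FMRP family members and partners it was 0 higher and 1 lower of 41. The cytosolic ribosomal proteins were on the other side, with 1 higher and 33 lower of 382 transcripts and a median of -0.19. Gapdh, the reference gene of the study's quantitative PCR, was called in the edgeR usage test (adjusted p = 0.0223) and not with limma (0.824).

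No difference in the proportions of the kinds of transcript was detected. Of the reads on protein-coding genes, retained-intron transcripts took 4.72% ± 0.155 (SD, n = 3) in Fmr1CRE and 4.74% ± 0.293 (SD, n = 3) in WT (exact permutation p = 0.9). Targets of nonsense-mediated decay took 3.20% ± 0.0716 and 3.20% ± 0.0651 (exact permutation p = 0.9), and protein-coding transcripts 88.9% and 88.8%. Of 10444 retained-intron transcripts tested, 339 had an unadjusted p under 0.05, 187 higher and 152 lower. Of 3180 targets of nonsense-mediated decay it was 144, 89 higher and 55 lower. Over all transcripts tested it was 2275 of 52609 (4.32%). No gene had transcripts called in opposite directions after adjustment, and 122 had transcripts in opposite directions at an unadjusted p under 0.05.

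The gene counts of the same libraries gave 0 calls among 19112 genes (0%, edgeR), with a smallest adjusted p of 0.0536. Unadjusted, 973 genes (5.09%) had a p under 0.05, 572 higher and 401 lower in Fmr1CRE, and DESeq2 called 60. Without WT 3, 6 genes were called, and without Fmr1CRE 2, 1 gene. The deposited gene counts were not the plain sums of the transcript reads. They lay 0.144% to 0.211% from counts rebuilt from TPM, a level corrected for transcript length and depth, and the average transcript length, and 3.85% to 6.48% from the plain sums. In such length-scaled counts a read on a short transcript weighs more than a read on a long transcript of the same gene.

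For 3 of the 5 genes of smallest p the plain sums lay closer together than the deposited counts. Impg2, known as a matrix proteoglycan of the retina, had deposited counts of 112, 204 and 133 in Fmr1CRE and 20, 16 and 17 in WT, the third smallest p (adjusted p = 0.0536). The reads behind them summed to 53, 32 and 26 in Fmr1CRE and 25, 21 and 22 in WT, and the plain sums gave an adjusted p of 0.831. The transcript whose reads separated the genotypes was Impg2-203, of 314 bases, with 1.01, 2.59 and 1.61 reads in Fmr1CRE and 0 in WT. Kctd15 had deposited counts of 507, 408 and 465 against 184, 208 and 179 and plain sums of 351, 449 and 282 against 311, 354 and 336. Kctd15-205, of 157 bases, had 2, 1 and 2 reads in Fmr1CRE and 0 in WT.

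Gm6345, a predicted gene, had deposited counts of 3, 3 and 2 in Fmr1CRE and 274, 271 and 86 in WT, and plain sums of 5, 5 and 5 against 15, 22 and 11. Its transcript Gm6345-202, of 204 bases, held at most 2.92 reads. Gm5436, with 1 annotated transcript, did not depend on the weighting, with 1.17, 5.03 and 1.14 reads in Fmr1CRE and 74.0, 82.8 and 87.8 in WT. Its adjusted p was 0.0536 on the deposited counts and 0.0243 on plain sums. These 4 genes, of the 5 with the smallest p, were named after their values were seen. Over the 18992 genes tested both ways, 969 had an unadjusted p under 0.05 on the deposited counts and 1123 on plain sums, and 489 had it on both. The log2 fold change moved by more than 0.5 in 533 genes (2.81%), and in 172 (17.75%) of the 969.

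**Figure D4:**
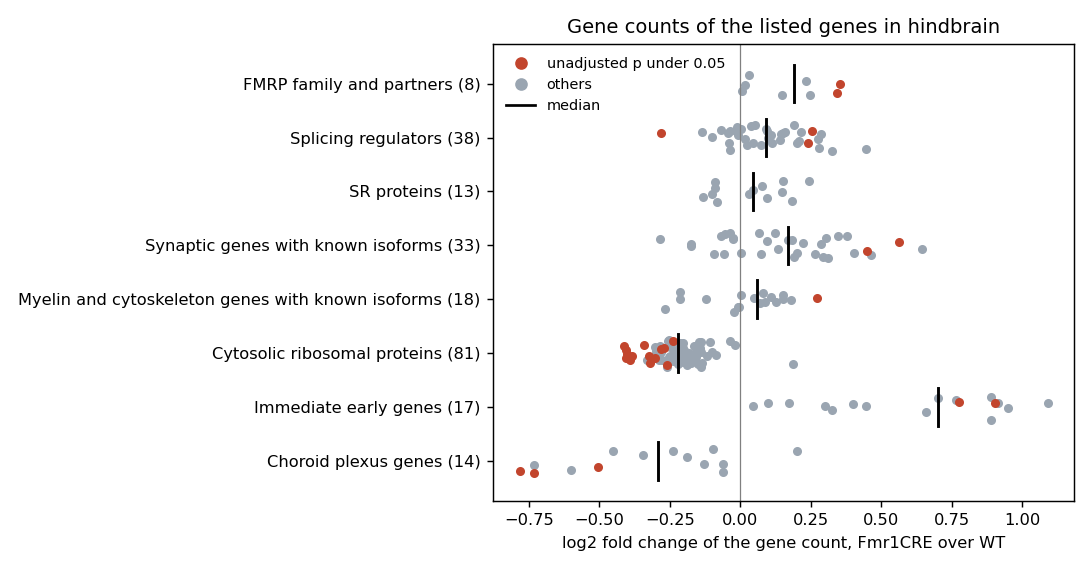
Log2 fold change of the gene count (x axis, Fmr1CRE over WT) for the genes of 8 lists (y axis, with the number tested), with 1 point per gene, the median of each list as a black line and genes of unadjusted p under 0.05 in red. Cytosolic ribosomal proteins have 80 of 81 genes below 0 and immediate early genes 17 of 17 above 0, and 0 genes of these lists are called after adjustment.

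At the gene level 0 genes of the lists passed the adjusted test, and some lists lay mostly to 1 side. Of 17 immediate early genes tested, which neuronal activity induces and most of which encode transcription factors, 17 had a positive log2 fold change with a median of 0.70, and 2, Egr1 and Fosl2, had an unadjusted p under 0.05. Egr1 was at 14.9, 20.5 and 15.3 CPM in Fmr1CRE and 12.4, 8.01 and 7.05 in WT, so that WT 1 stood nearest to the Fmr1CRE mice. Fos was at 19.6, 23.5 and 22.2 CPM in Fmr1CRE and 22.3, 3.83 and 4.76 in WT, where WT 1 lay within the Fmr1CRE range. Of 81 cytosolic ribosomal protein genes, 80 had a negative value with a median of -0.22 and 14 had an unadjusted p under 0.05. Their summed CPM ran from 11464.0 to 13434.3 in Fmr1CRE and was 15802.5, 15416.4 and 12877.2 in WT, so WT 3 lay within the Fmr1CRE range. Rps20 was at 61.1, 49.5 and 43.8 CPM in Fmr1CRE and 76.6, 75.0 and 56.7 in WT, and the groups overlapped. Over all genes tested the median was -0.01, 9865 of 19099 had a negative value and 5.09% had an unadjusted p under 0.05.

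Of the 8 FMRP family members and partners, 8 had a positive log2 fold change with a median of 0.19. Caprin1, a partner of FMRP in RNA granules, was at 233.1, 246.9 and 262.2 CPM in Fmr1CRE and 180.5, 173.9 and 233.7 in WT (0.34, SE 0.15, adjusted p = 0.879). Nlgn2 had the smallest p of the synaptic genes, with 131.3, 146.9 and 122.9 CPM in Fmr1CRE and 97.2, 98.0 and 79.7 in WT (0.56, SE 0.12, adjusted p = 0.747). Of the 33 synaptic genes, 23 were higher and 10 lower, with a median of 0.17. Cell-type lists differed among mice of a genotype as well. The 14 choroid plexus genes, which mark the secretory epithelium of the ventricles, summed to between 2333 and 2411 CPM in Fmr1CRE and to 5097, 4161 and 1916 in WT, so WT 3 was the lowest of the 6 mice. The summed CPM of blood genes ran from 1091 to 2490 and from 1230 to 2908, and that of oligodendrocyte genes from 35313 to 44464 and from 32968 to 43830. In bulk tissue, fewer cells of a type and less RNA per cell cannot be told apart, and the part of these cell types in the values above was not tested.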

How the data were processed

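Poly(A) RNA of 18 mouse brain libraries was quantified by the authors with Salmon 0.14.0 in the bcbio pipeline, with mm10 and DESeq2 1.30.1 also named in the submitters' processing notes. The authors deposited estimated counts (NumReads) and TPM values per transcript and a table of gene counts. The 136288 transcripts listed were named from GENCODE M21, where 136176 had a gene, and the 112 without a gene took at most 0.072% of the reads of a hindbrain library. Libraries were taken by the mouse and region in the file name, with 0 columns of values left unused in the tables read.

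Estimated counts were rounded to whole numbers, filtered with filterByExpr by genotype and scaled by TMM. Levels of transcripts and genes were tested with edgeR 4.0.16 (robust quasi-likelihood test, R 4.3.3), and usage with diffSpliceDGE, where each transcript is compared with the rest of its gene. P-values were adjusted by Benjamini-Hochberg over all features tested, at 0.05. Shares are percent of the NumReads of a gene and were tested by exact permutation. DESeq2 1.42.0 and limma 3.58.1 (voom, diffSplice) were alternatives, as were a minimum of 10 reads in every library, a minimum share of 5%, other scaling, no filter, a fit of all 18 libraries, a replicate block and leaving out libraries. The tests were also run on simulated data, where counts were drawn independently and shared reads were not divided among transcripts. There the edgeR usage test and the DESeq2 transcript test made calls where nothing differed, and the edgeR level test and limma made almost none. Own windows are runs of 50 bases of a transcript found in no other transcript of its gene. Sequences were read from the GENCODE transcripts, and the guide from the supplement. Replicate numbers did not pair mice across genotypes (correlations of deviations 0.0053, 0.0093 and -0.025 over transcripts).

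The genes named were the Fmr1, Fxr1 and Fxr2 transcripts, the 5 transcripts of smallest p in each direction, the 10 genes of smallest edgeR usage p and the 3 of smallest p in each isoform list. One result that this rule names is not reported here. The members and lists were chosen with earlier results of these data known. Depth limits the weak transcripts. The edgeR, DESeq2 and limma p-values weigh the difference between genotypes against the spread between mice, with 3 mice in each genotype. Pools and lanes were not stated per library.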

Additional observations from a re-analysis of the deposited data

Results flagged for a closer look

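Among the transcripts named above, those of Trim9, Diablo and Babam2 had shares that did not overlap between genotypes in 1 direction in hindbrain and in the other direction in another region. The difference between the regions was not tested. With 3 against 3 libraries, untied values separate completely in a fraction of 0.1 of all label splits, so these orders are not read as reversed effects. Over all 5308 transcripts whose hindbrain shares did not overlap, 220 (4.14%) had the opposite order in midbrain and 369 (6.95%) in forebrain. All values are Fmr1CRE minus WT, in percentage points of the reads of the gene. Trim9-201 differed by -11.5 in hindbrain and by 11.5 in midbrain, and Trim9-202 by 7.77 and -12.6. Diablo-203 differed by -12.5 in hindbrain and by 10.2 in midbrain. Diablo-206, listed at 0 in the 3 WT hindbrain libraries, differed by 8.06 in hindbrain, by -9.25 in midbrain and by -8.81 in forebrain. Its forebrain shares were 0%, 6.7% and 0% in Fmr1CRE and 15.6%, 7.2% and 10.3% in WT, where the libraries of replicate 3 are those that went against their names for Gfap-202, Cep131-201, Xlr3b-203 and Xlr3a-202. Babam2-205 held 23.4%, 17.7% and 19.3% in Fmr1CRE hindbrain and 0% in each WT library, and it kept this order in midbrain. Its forebrain shares were 12.2%, 0% and 0% in Fmr1CRE and 16.7%, 17.8% and 14.1% in WT, with the same replicate 3 libraries. The forebrain orders of Diablo-206 and Babam2-205 rest on the names of those libraries. The regions share their animals, and Diablo-206 has no own window.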

How the results depend on the processing

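No transcript was called under the main edgeR fit, and 0 were called with a replicate block. A fit of all 18 libraries called 12 and DESeq2 530. The usage count of 120 genes was 9 with at least 10 counts in each library, 6 with limma, 49 with a minimum share of 5%, 54 with a replicate block and 941 without replicate 3 of both genotypes. Leaving out 1 library gave 191 to 667 genes, with 667 without WT 3. Gene calls went from 0 to 9 with no filter, 1 with all 18 libraries, 1 without replicate 3, 1 on plain sums of reads (an alternative chosen after seeing the data), 60 with DESeq2 and 0 with a replicate block, and leaving out 1 library gave 0 to 6, with 6 without WT 3. Why these counts moved was not tested. DESeq2 size factors, no filter, the 18-library fit and length-scaled estimates (chosen after seeing the data) left the usage count at 121, 104, 132 and 115. The differences of the Fmr1 shares and of the retained-intron and nonsense-mediated decay shares moved by less than the spread between replicates under every alternative run. Of 718 recomputed values for 47 named results, 603 stayed on their side of the threshold, 33 passed it and 82 lost it. A change of sign was looked for only in levels called in the main fit or in the alternative, and usage values have no sign. Among the usage genes, Mapk1ip1l (adjusted p = 0.313), Zfp513 (0.111), Xlr3b (0.123), Bmi1 (0.190) and Gpatch2l (0.286) lost their edgeR call with the replicate block, and Trim9 (2.30e-05) and Diaph3 (0.0347) did not. The block follows replicate numbers, which did not pair mice across genotypes, and it leaves less information to estimate the spread.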
